A study of Sus scrofa with 12 samples.

Results

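Accessible chromatin was examined around 9 genes that store triglyceride in lipid droplets or release fatty acids from it, in the longissimus dorsi, the long muscle of the back, of Duroc and Luchuan boars. The genes were PNPLA2, LIPE and MGLL for the lipases, ABHD5 and G0S2 for their activator and inhibitor, and PLIN2, PLIN4, PLIN5 and CIDEC for the droplet coat. Deposited ATAC-seq intervals were counted to a gene when their midpoint lay in its body in Sscrofa11.1 or within 10 kb of it. Merging of overlapping intervals left 70 regions of 140081 in all, and 3 of these 70 belonged to both PLIN4 and PLIN5, which are neighbours. All 9 genes had at least 3 regions.

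In ATAC-seq a transposase inserts adapters into open chromatin, and the number of sequenced fragments at a site measures its accessibility. The series labels 3 Duroc and 3 Luchuan ATAC-seq libraries from males 180 days old, kept under the same feeding conditions and fasted overnight before sampling. Duroc is a lean breed and Luchuan a fat breed, and breed is the only label that separates the groups. The RNA-seq libraries of the same muscle were not analysed here. The table held 1 read count per breed and region, so no value below has a spread between animals and no difference has a replicate check. The tissue is a mixture, so a change within cells and a change in the share of a cell type cannot be told apart.

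Triglyceride is broken down stepwise. PNPLA2, also called ATGL, removes the first fatty acid, LIPE, the hormone-sensitive lipase, cleaves the diglyceride that is left, and MGLL cleaves the monoglyceride. ABHD5 activates PNPLA2 and G0S2 binds and inhibits it. Perilipins coat the droplet and control the access of these enzymes, and CIDEC helps droplets to fuse and grow. Fasting is known to raise lipolysis, and muscle fibers use the released fatty acids as fuel.

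Read counts were compared as the log2 ratio of Luchuan to Duroc reads, with 1 added to each count. The median of this ratio over the 68776 regions called in both breeds, -0.56, was subtracted, which corresponds to multiplying Luchuan reads by 1.48. Parentheses give 95% intervals on this scale, from the Clopper-Pearson method for the part of the reads that came from Luchuan, and they cover counting error only. The regions held 20759894 Duroc and 13746020 Luchuan reads in all, with medians of 61 and 38 reads per region. The regions around the 9 genes were stronger than most, their median read number, summed over the breeds, being 258 against 99 over all regions.

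G0S2 stood apart from the other 8 genes, with more open chromatin in Luchuan. Its 5 regions held 883 Duroc and 1129 Luchuan reads, and the summed log2 ratio was 0.92 (0.79 to 1.04), which is 1.89-fold. LIPE came next with 0.26 (0.17 to 0.35), and the remaining 7 genes lay between -0.11 and 0.16. Only G0S2 among the 9 genes reached a summed log2 ratio of 0.5, which 6.53% of the 16986 genes with a region reached in the direction of Luchuan. None of the 9 reached -0.5, against 4.37% of all genes. Among the 13836 genes with at least 500 reads, as all 9 had, these shares were 1.17% and 2.82%. The counting interval lay above 0 for 4 of the 9 genes, G0S2, LIPE, PLIN2 and CIDEC, against 22.5% of all genes, and below 0 for 2, MGLL and PLIN4, against 25.5%. The median over the 9 genes was 0.10, and that over all genes was -0.0058. These differences compare the pooled reads of each breed and not animals. Scaling by the clean reads that the study states lowered every ratio by 0.20, which left G0S2 at 0.72 and LIPE at 0.063 and put ABHD5, PLIN2, PLIN5 and CIDEC below 0.

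**Figure D1:**
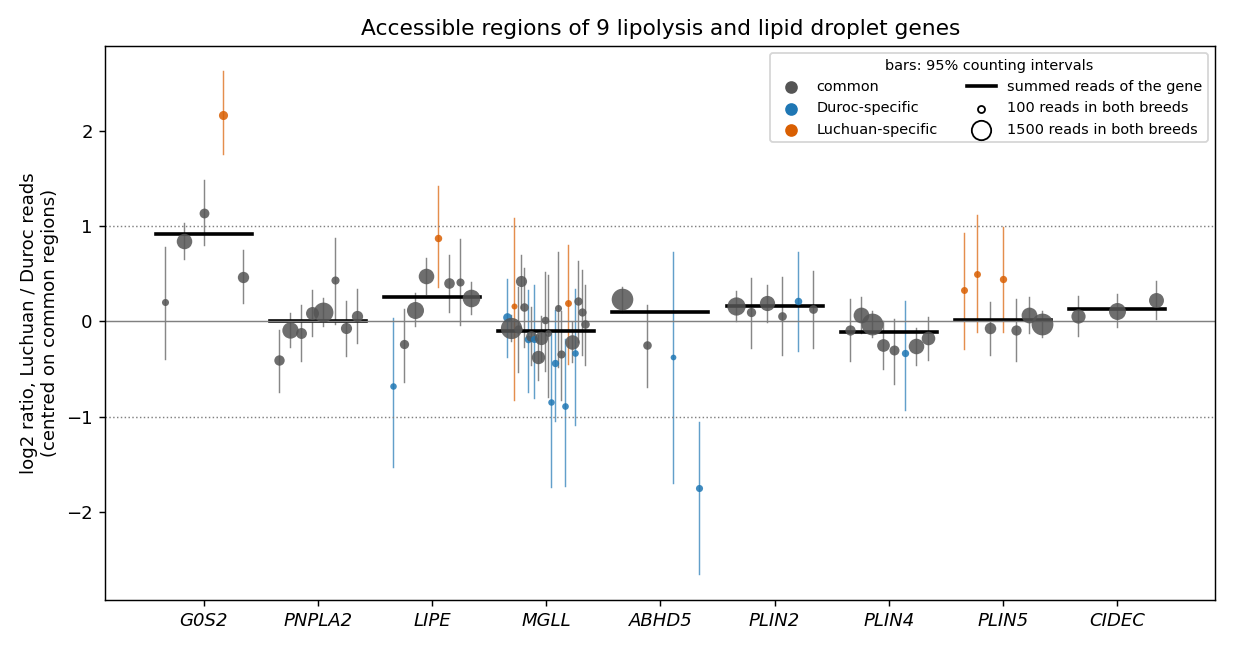
Log2 ratio of Luchuan to Duroc reads (vertical axis) for each region of the 9 genes, in the order of their coordinates. Points are regions, their area grows with the reads of both breeds, thin bars are 95% counting intervals, colours give the breed in which a region was called, and black lines mark the summed reads of a gene. The black line of G0S2 lies at 0.92 and those of the other genes between -0.11 and 0.26.

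Strong shifts were few among the 70 regions. A log2 ratio of 1 or more was seen in 2 regions, both at G0S2, which is 2.86% against a background of 7.41% of all regions. A log2 ratio of -1 or less was seen in 1 region, beyond the end of ABHD5, which is 1.43% against 5.34%. The background depended on depth, and among regions of at least 100 reads, 1.42% had a log2 ratio of 1 or more and 4.62% had -1 or less. Of the 70 regions, 60 had at least 100 reads, including the 2 of G0S2 and the 1 of ABHD5, which makes 3.33% and 1.67%. At this depth the share higher in Luchuan was above the background, but it rested on 2 regions of 1 gene. Of these 2 regions, 1 was called in Luchuan only. The share thus describes G0S2 and not the 9 genes as a set. The counting interval lay above 0 in 12 of the 70 regions, 17.1% against 13.4% of all regions, and below 0 in 7 regions, 10% against 15.7%. For the other 51 regions it included 0. The median log2 ratio over the 70 regions was 0.058, and over all regions it was -0.0090. Scaled by the clean reads that the study states, 1 of the 70 regions reached 1 and 3 reached -1, and their median was -0.14.

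G0S2 is a short protein made by a gene of 1002 bases on chromosome 9, from 133287065 to 133288066. It was also a candidate gene of the study, so it was not an unbiased choice. The study drew its candidates from genes that differed between the breeds in both ATAC-seq and RNA-seq. A high rank of G0S2 in the same ATAC-seq data is therefore not independent support. Its main region ran from 133287363 to 133288211, over the end of the gene with the higher coordinate. It had 416 Duroc and 505 Luchuan reads, with a log2 ratio of 0.84 (0.65 to 1.03). Luchuan thus had more reads here although its libraries were the shallower ones. The strand of genes was not in the annotation used here, so gene ends are named by coordinate and not as start or termination site.

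The largest shift lay outside the gene, 2.08 kb beyond the same end. This region, from 133289949 to 133290340, was called in Luchuan only, with 60 reads in Duroc and 184 in Luchuan. Its log2 ratio was 2.16 (1.75 to 2.62), which is 4.48-fold. Of the 70040 regions in the table with at least 100 reads, 115 reached this ratio, itself included. Between it and the gene, a region from 133288740 to 133289151 held 122 Duroc and 182 Luchuan reads, at a log2 ratio of 1.13 (0.80 to 1.48). Farther out, a region from 133291034 to 133291568 held 227 Duroc and 213 Luchuan reads, a log2 ratio of 0.47 (0.19 to 0.75). The highest ratio thus belonged to the region 2.08 kb out, which was called in Luchuan only. Such a call selects for a high ratio, so its place among all regions is no separate support. In the regions on this side called in both breeds, the ratio was 0.84 at the gene, 1.13 next to it and 0.47 at 3.23 kb. The intervals at the gene and next to it overlapped.

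The remaining region of G0S2, from 133278429 to 133278701, lay 8.5 kb away on the other side and 169 bases from HSD11B1, the enzyme that regenerates active glucocorticoid. It had 58 Duroc and 45 Luchuan reads, and its interval of -0.40 to 0.78 included 0. The nearest region beyond the window of 10 kb on that side, from 133276823 to 133277072, had 43 and 24 reads and -0.25 (-1.06 to 0.47). All 5 regions were above 0, which was true of 8.9% of the 1652 genes with exactly 5 regions. All 6 regions of PLIN2 were above 0 as well, as for 4.94% of the 1337 genes with exactly 6. The summed ratio of G0S2 was not carried by a single region. Without the region that was called in Luchuan only it was 0.76, and without the main region, the others summed to 0.98.

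For the regions called in both breeds, the table gives an interval for each breed. The main region of G0S2 was 849 bases long as called in Luchuan and 709 as called in Duroc, with log2 ratios of 0.84 and 0.78. The next region was 412 bases long in Luchuan and 213 in Duroc, and both intervals gave 1.13. At the region 3.23 kb out the Duroc interval was the longer, 535 against 281 bases, and both gave 0.47. At the region 8.5 kb away the Duroc interval gave 0.20 and the Luchuan interval 0.098 (-0.57 to 0.73).

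Regions from 10 to 100 kb away summed to smaller differences than those at G0S2. On the side of lower coordinates, 23 regions summed to a log2 ratio of 0.22 (0.14 to 0.30), and on the side of higher coordinates, 18 regions summed to 0.080 (0.010 to 0.15). Of these 41 regions 4 reached a log2 ratio of 1, which is 9.76% against 7.41% of all regions, and none reached -1. A ratio above 0 was seen in 29 of the 41, 70.7% against 49.2% of all regions, so that the surroundings also leaned towards Luchuan, with a median of 0.18. Of the 4 regions that reached 1, that with the most reads ran from 133355468 to 133355815 in CAMK1G, a calcium and calmodulin dependent kinase gene. It held 57 reads in Duroc and 103 in Luchuan, at a log2 ratio of 1.40 (0.93 to 1.91). LAMB3, a laminin chain gene with an end within 10 kb of G0S2, held the other 2 on the side of higher coordinates. These had 82 and 35 reads for both breeds together.

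**Figure D2:**
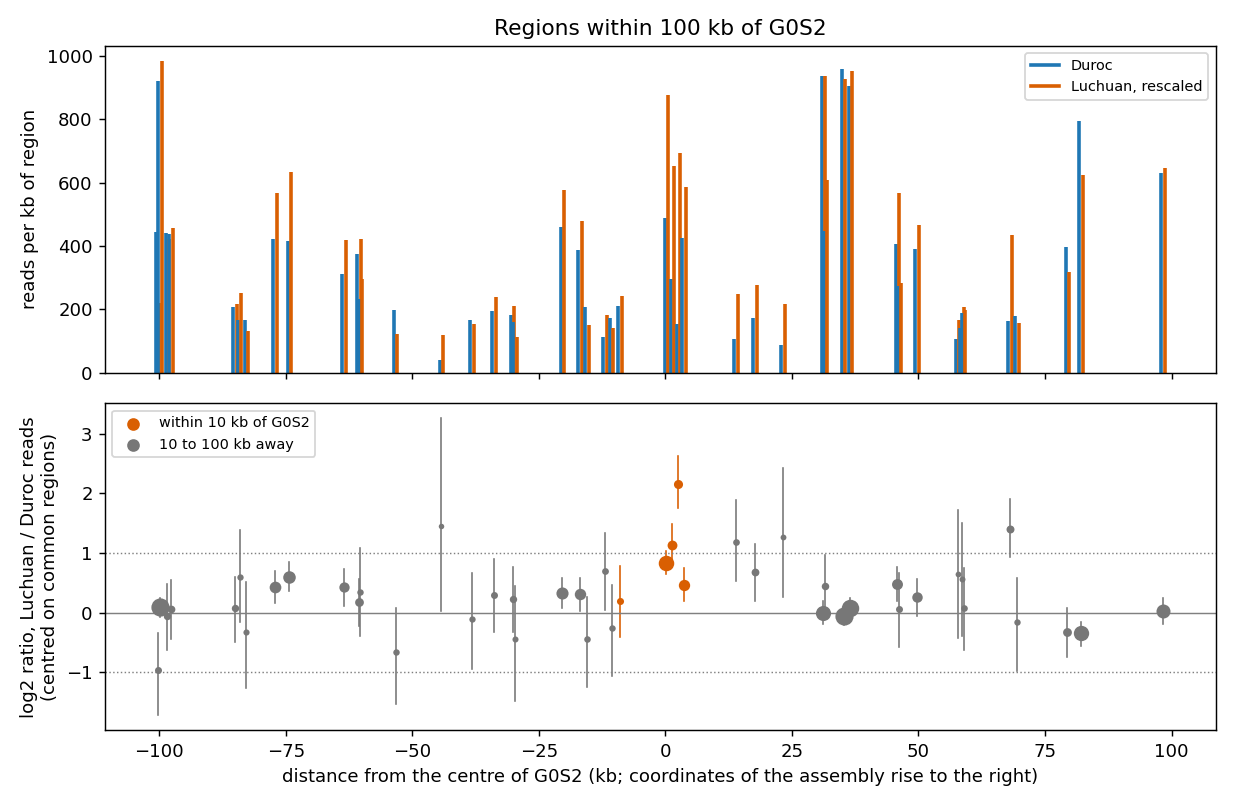
Regions within 100 kb of G0S2, with reads per kb of region for Duroc and for rescaled Luchuan (upper panel) and the log2 ratio with 95% counting intervals (lower panel), against the distance from the centre of the gene in kb. The 4 regions at the gene lie between 0.47 and 2.16, and the 41 regions farther out lie between -0.97 and 1.45 with a median of 0.18.

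Per kb of region, the reads at G0S2 were the fewest of the 9 genes in Duroc and not in Luchuan. In Duroc the density ran from 359 reads per kb at G0S2 and 510 at MGLL to 708 at PNPLA2. In Luchuan, after rescaling, it ran from 475 at MGLL to 759 at LIPE, and G0S2 had 677.

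PNPLA2, the target of G0S2, showed hardly any difference in its summed reads. The gene lies on chromosome 2 from 513065 to 517962, and its 8 regions held 2985 Duroc and 2022 Luchuan reads, with a log2 ratio of -0.00041 (-0.083 to 0.081). All of its regions were called in both breeds. The region with the most reads, inside the gene from 513382 to 514485, held 915 reads in Duroc and 663 in Luchuan, at a log2 ratio of 0.097 (-0.050 to 0.24). The region from 512792 to 513194, which crosses the lower end, had a log2 ratio of 0.090 (-0.15 to 0.32). The largest ratio in either direction, 0.43 (-0.023 to 0.87), came from 90 Duroc and 82 Luchuan reads inside the gene, from 517233 to 517419. Within the window of PNPLA2, 5 of 8 regions lay nearer to other genes, namely PIDD1, RPLP2 and CD151. The region with an interval below 0, from 504777 to 505180 with 234 Duroc and 119 Luchuan reads, lay in PIDD1 and had a log2 ratio of -0.41 (-0.74 to -0.090). Within 2 kb of PNPLA2 the summed ratio was 0.12.

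LIPE was shifted towards Luchuan, less than G0S2 and mainly inside the gene. It lies on chromosome 6 from 49543671 to 49560126, and its 8 regions held 2362 Duroc and 1914 Luchuan reads. Of all genes with at least 500 reads, 7.76% had a summed ratio as high as that of LIPE, against 0.145% for G0S2, which ranked 20 among 13836. The study had selected G0S2 for a breed difference in these data, so its rank is not independent. The 4 regions inside LIPE summed to 0.49. The strongest of them, from 49548782 to 49549552, held 477 reads in Duroc and 451 in Luchuan, at a log2 ratio of 0.48 (0.29 to 0.67). Beside it, a region called in Luchuan only, from 49549766 to 49549956, held 56 reads in Duroc and 70 in Luchuan, at a log2 ratio of 0.88 (0.36 to 1.42), the largest of the gene.

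Toward its lower end the ratios of LIPE were smaller. The region across that end, from 49542942 to 49543813, held 653 reads in Duroc and 481 in Luchuan, at a log2 ratio of 0.12 (-0.053 to 0.29). Outside it, regions at 2.68 and 6.82 kb had log2 ratios of -0.24 (-0.63 to 0.13) and -0.68 (-1.53 to 0.040). The strongest region of the window lay beyond the other end, from 49562486 to 49563290, and held 676 reads in Duroc and 542 in Luchuan, at a log2 ratio of 0.24 (0.077 to 0.41). The annotation places the whole of LIPE within the longer ATP5SL, so that these regions could not be assigned to LIPE alone.

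MGLL, the longest of the 9 genes with 88570 bases on chromosome 13, from 72480395 to 72568964, was close to even. It had 24 regions, of which 21 lay in its body, with 4376 Duroc and 2759 Luchuan reads and a summed log2 ratio of -0.10 (-0.17 to -0.035). The region with the most reads spanned the lower end of the gene, from 72479985 to 72481266, with 1111 Duroc and 717 Luchuan reads and a log2 ratio of -0.070 (-0.21 to 0.066). Regions inside the gene went both ways. From 72506197 to 72506658 there were 223 Duroc and 202 Luchuan reads, with a log2 ratio of 0.42 (0.14 to 0.70). In the middle of the gene, from 72524315 to 72525049, there were 432 Duroc and 226 Luchuan reads, with a log2 ratio of -0.37 (-0.61 to -0.14).

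The weak regions of MGLL included the lowest ratios of the gene. The region from 72549497 to 72549714 held 59 reads in Duroc and 21 in Luchuan, at a log2 ratio of -0.89 (-1.72 to -0.19), and that from 72534006 to 72534195 had 52 and 19 reads and -0.84 (-1.73 to -0.11). Both were among the 7 regions of MGLL that were called in Duroc only. For 19 of the 24 regions the interval included 0.

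ABHD5, the coactivator of PNPLA2, combined an even summed ratio with the lowest ratio of the 70 regions. It lies on chromosome 13 from 27006331 to 27053760, and its 4 regions held 1294 Duroc and 941 Luchuan reads, a log2 ratio of 0.10 (-0.021 to 0.22). Most of these reads came from the region across the lower end of the gene, from 27005637 to 27006985, with 1056 Duroc and 840 Luchuan reads and a log2 ratio of 0.23 (0.099 to 0.36). This region also reaches the end of ANO10, a neighbouring gene. Beyond the other end, at 4.45 kb, the region from 27058001 to 27058409 was called in Duroc only and had 88 Duroc and 17 Luchuan reads. Its log2 ratio was -1.74 (-2.65 to -1.05), which is 3.35-fold higher in Duroc. Of the 70040 regions with at least 100 reads, 676 had a ratio this low, itself included. A call in Duroc only selects for a low ratio, so its place among all regions is no separate support. With 105 reads in all, it was also close to the limit of 100. The remaining 2 regions of ABHD5, inside the gene, had log2 ratios of -0.24 (-0.68 to 0.17) and -0.37 (-1.70 to 0.72).

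**Figure D3:**
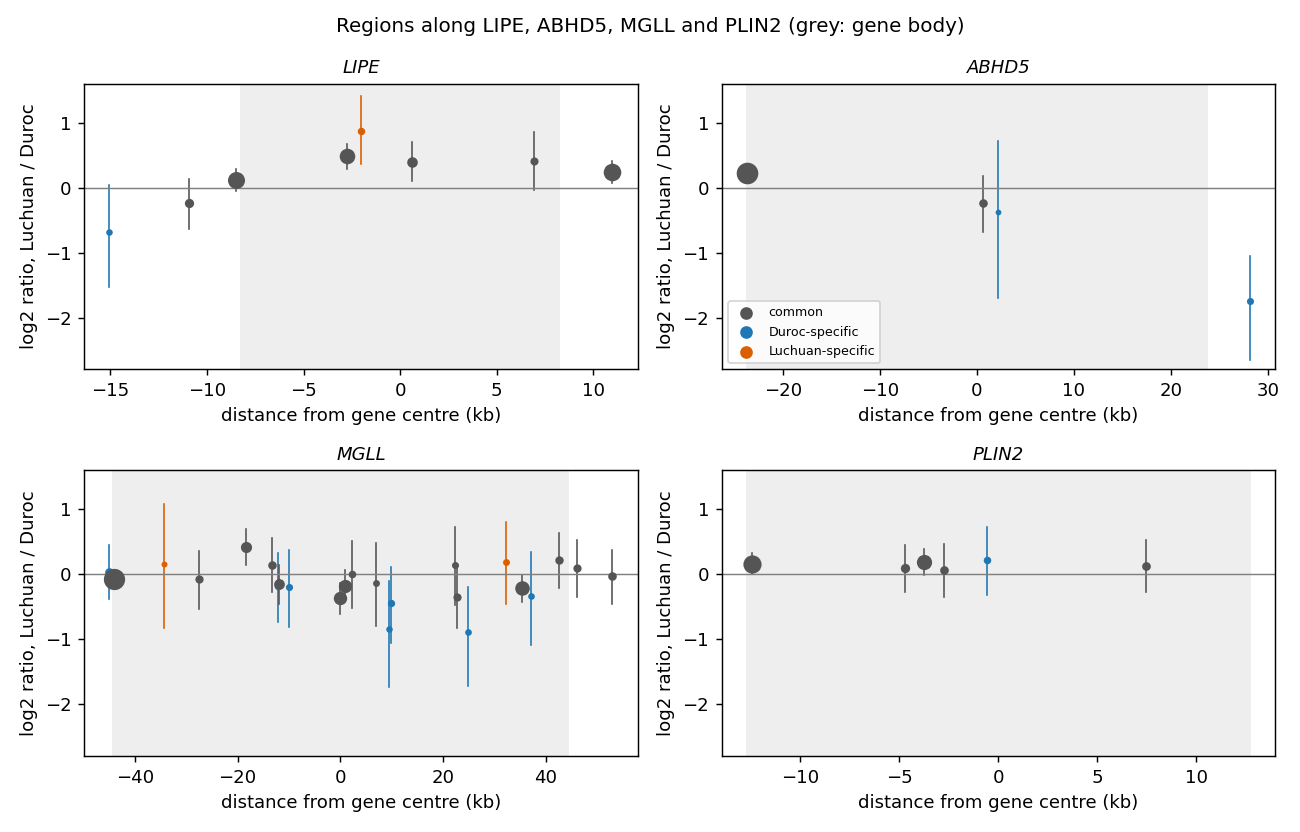
Log2 ratio of Luchuan to Duroc reads with 95% counting intervals for the regions of LIPE, ABHD5, MGLL and PLIN2, against the distance from the centre of the gene in kb. Grey marks the gene body and the area of a point grows with its reads. The regions inside LIPE lie between 0.40 and 0.88, and the region beyond ABHD5 lies at -1.74.

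PLIN2, the perilipin found on droplets of most cell types, varied little along its length. The gene lies on chromosome 1 from 203683867 to 203709277 and had 6 regions, all in its body, with 1721 Duroc and 1300 Luchuan reads. The summed log2 ratio was 0.16 (0.052 to 0.26) and became -0.038 when reads were scaled by the clean reads that the study states. The 6 regions lay between 0.060 and 0.22. The strongest region, across the lower end from 203683657 to 203684603, held 748 reads in Duroc and 567 in Luchuan, at a log2 ratio of 0.16 (0.0016 to 0.32). The next, from 203692457 to 203693166, had 499 and 386 reads and 0.19 (-0.0046 to 0.39). The highest ratio of 0.22 (-0.31 to 0.73) belonged to the region from 203695908 to 203696098, with 74 and 58 reads, which was called in Duroc only.

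PLIN4 and PLIN5, perilipins of muscle and fat tissue, lie side by side on chromosome 2, from 74318624 to 74331920 and from 74304613 to 74314314. The region with the most reads of both windows, inside PLIN4 from 74319457 to 74320709, held 1160 reads in Duroc and 771 in Luchuan, at a log2 ratio of -0.027 (-0.16 to 0.10). At the lower end of PLIN4, from 74318224 to 74318919, a region had a log2 ratio of 0.064 (-0.13 to 0.25). The summed log2 ratio was -0.11 (-0.19 to -0.038) for PLIN4 and 0.019 (-0.073 to 0.11) for PLIN5.

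Without the 3 regions they share, the summed ratios of PLIN4 and PLIN5 lay farther apart. The regions left lay in part in neighbouring genes, and some were called in Luchuan only. The 5 other regions of PLIN4 summed to -0.25 (-0.36 to -0.13), and 3 of them lay in the neighbouring HDGFL2. One of those, from 74332457 to 74333428 with 592 Duroc and 334 Luchuan reads, was the only region of PLIN4 with an interval below 0, at -0.26 (-0.46 to -0.068). The unshared regions inside PLIN4 itself were about as low. That from 74326470 to 74327222 had -0.24 (-0.50 to 0.0013), and that from 74330516 to 74330883 had -0.31 (-0.66 to 0.028). The lowest ratio of PLIN4 was -0.33 (-0.93 to 0.22), in a region called in Duroc only with 118 reads for both breeds together. The 4 other regions of PLIN5 summed to 0.13 (-0.082 to 0.34). Of these, the region called in both breeds, from 74302960 to 74303631, held 276 Duroc and 178 Luchuan reads, at -0.069 (-0.35 to 0.21). A call in Luchuan only selects for a high ratio, so the sum is no separate support for a shift. The 3 regions called in Luchuan only had log2 ratios from 0.33 to 0.50, and their intervals included 0. The region across the lower end of PLIN5, from 74304456 to 74304721, was among them, with 61 Duroc and 56 Luchuan reads and 0.44 (-0.11 to 0.99). The region of PLIN5 with the largest ratio, 0.50 (-0.12 to 1.11), had 48 Duroc and 46 Luchuan reads and lay in LRG1.

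CIDEC was the only gene of the 9 without a region in its body. It lies on chromosome 13 from 66141836 to 66149801, and its 3 regions held 1568 Duroc and 1163 Luchuan reads. The summed log2 ratio was 0.13 (0.020 to 0.24) and became -0.065 with the clean reads that the study states. All 3 regions lay nearer to RPUSD3 or JAGN1 than to CIDEC. Its strongest region, from 66137324 to 66138235 between RPUSD3 and CIDEC, held 651 reads in Duroc and 477 in Luchuan, at a log2 ratio of 0.11 (-0.061 to 0.29). The largest ratio, 0.22 (0.020 to 0.42), belonged to the region from 66155244 to 66156091 in JAGN1, with 474 and 374 reads.

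Apart from CIDEC, each gene had a region across one of its ends. The median of both breeds' reads was 1046 for these 8 regions, against 187 for the 36 regions inside a body and 348 for the 26 outside. Regions shared by PLIN4 and PLIN5 were placed by their position at PLIN4. The region from 74311542 to 74312069, which lies inside PLIN5, was therefore counted as outside. The log2 ratios of the 8 regions across an end ran from -0.070 at MGLL to 0.84 at G0S2, with a median of 0.14. The shifts of 1 or more in either direction were not at gene ends. The shares of calls below were not compared at like depth, and the 70 regions had a median of 258 reads against 99 over all regions. Of the 70 regions, 51 were called in both breeds, which is 72.9% against 49.1% of all regions. Another 12, 17.1% against 31.8%, were called in Duroc only, with log2 ratios from -1.74 to 0.22 and a median of 107 reads, and 7, 10% against 19.1%, were called in Luchuan only, with 0.17 to 2.16 and a median of 96 reads.

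**Figure D4:**
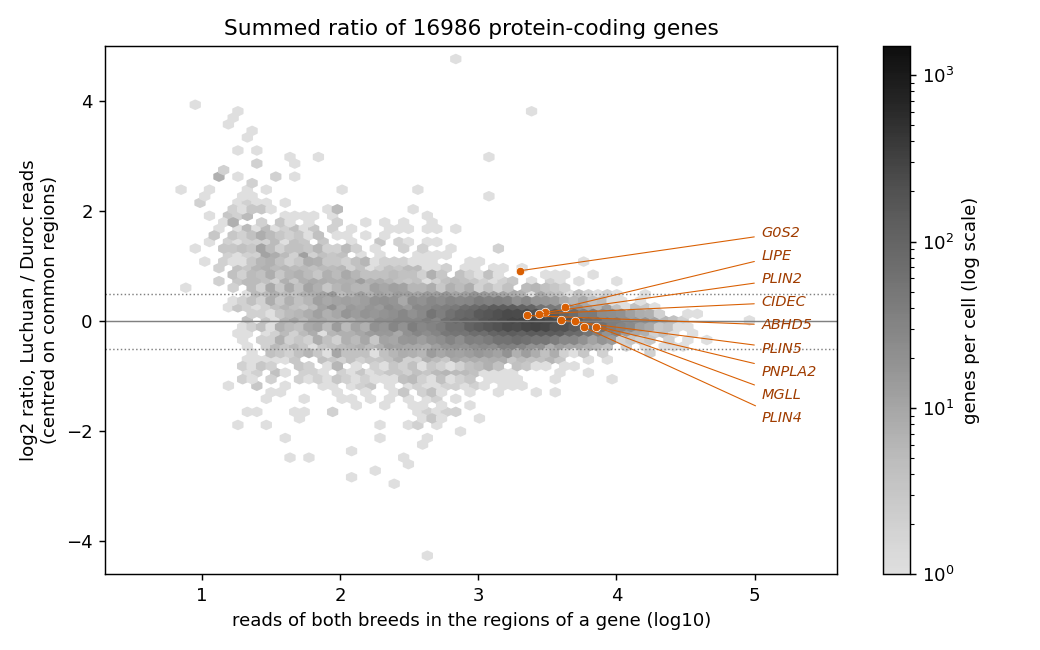
Summed log2 ratio of Luchuan to Duroc reads (vertical axis) against the reads of both breeds in the regions of a gene on a log10 scale (horizontal axis), for 16986 protein-coding genes as shaded cells and the 9 genes as orange points. Dotted lines mark 0.5 and -0.5, and only G0S2 of the 9 genes lies outside them, at 0.92.

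Other genes of lipolysis and of lipid droplets were compared in the same way, from 5 lists with 42 genes in all. Of these, 41 were found in the annotation and 39 had a region. A summed log2 ratio of 0.5 or more was seen in 2 of the 39 genes and -0.5 or less in 1 gene, against the backgrounds of 6.53% and 4.37%. The median over the 39 genes was 0.026. The counting interval lay above 0 for 8 genes and below 0 for 8 others, which is 20.5% each, against 22.5% and 25.5% of all genes. Over the 39 genes, genes past 0.5 were thus no more frequent than in the background. All 3 were on the list for the hormonal control of lipolysis, in which 11 genes had a region. In this list the counting interval lay above 0 for 6 genes, 54.5%, and below 0 for 4, 36.4%. Both shares were above those of all genes, but the list was singled out after its values were seen. Of the 3 genes past 0.5, ADRB1 and ADRA2A had fewer than 500 reads. For genes with at least 500 reads the backgrounds were 1.17% and 2.82%, so shallow genes pass 0.5 more often.

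ADRB1, a beta-adrenergic receptor through which catecholamines start lipolysis, held 19 reads in Duroc and 34 in Luchuan, at a log2 ratio of 1.37 (0.55 to 2.29). ADRA2A, an alpha-adrenergic receptor that restrains lipolysis, held 166 reads in Duroc and 170 in Luchuan, at a log2 ratio of 0.60 (0.28 to 0.91). ADCY3, an adenylyl cyclase that makes cAMP, held 461 reads in Duroc and 190 in Luchuan, at a log2 ratio of -0.71 (-0.97 to -0.47). The other 8 genes of this list with a region lay between -0.17 (-0.25 to -0.10) at PRKACA and 0.27 (0.13 to 0.41) at PRKACB, both catalytic subunits of protein kinase A.

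In the other 4 lists no gene passed 0.5 in either direction. Among the relatives of the perilipins and lipases, PLIN1, the perilipin of adipocytes, had the highest ratio with 0.34 (-0.061 to 0.73) from 118 Duroc and 101 Luchuan reads. CIDEA, a relative of CIDEC, had the lowest of that list with -0.29 (-0.48 to -0.11). For the formation of droplets, the ratios ran from -0.22 (-0.31 to -0.13) at BSCL2, which encodes seipin, to 0.12 (-0.031 to 0.26) at DGAT2, an enzyme of triglyceride synthesis. For the handling of fatty acids and glycerol, they ran from -0.076 (-0.21 to 0.057) at AQP7, a glycerol channel, to 0.23 (0.15 to 0.31) at CD36, a fatty acid transporter. Among transcription factors of lipid genes, PPARD had -0.23 (-0.31 to -0.16) and FOXO1, a factor active in fasting, had 0.31 (0.24 to 0.37) from 4675 Duroc and 3917 Luchuan reads.

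**Figure D5:**
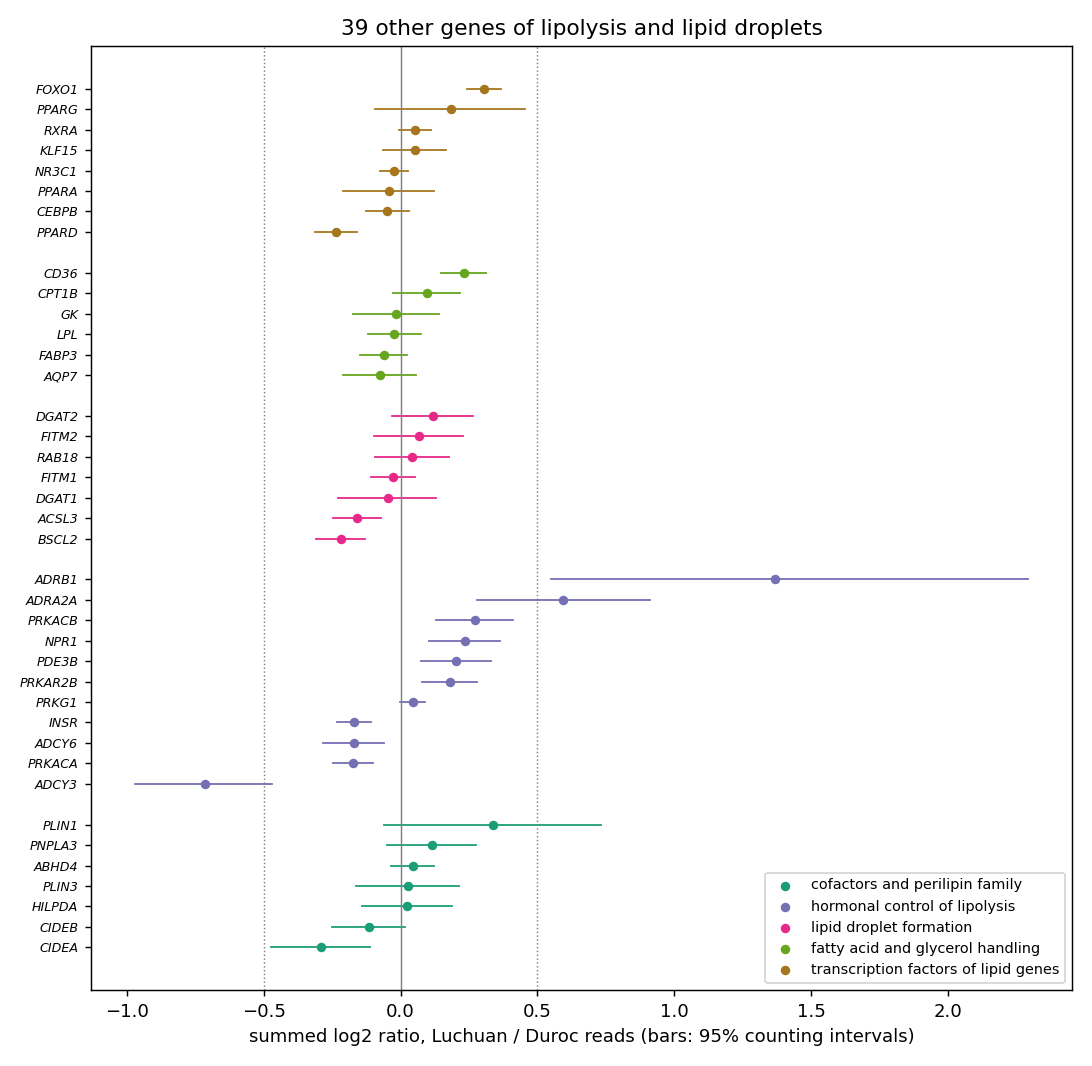
Summed log2 ratio of Luchuan to Duroc reads (horizontal axis) with 95% counting intervals for 39 other genes of lipolysis and lipid droplets, coloured by list. Dotted lines mark 0.5 and -0.5. ADRB1 and ADRA2A lie above 0.5 and ADCY3 below -0.5.

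Markers of the cell types in the tissue were counted in the same windows. Of 6 markers of skeletal muscle fibers, 5 were found in the annotation, and they had 758 to 965 Duroc and 474 to 610 Luchuan reads per kb of region. Of 6 adipocyte markers, 4 had a region, with 175 to 356 Duroc and 116 to 197 Luchuan reads per kb, and FABP4 and RETN had none. The adipocyte markers together had a log2 ratio of -0.30, but single markers went both ways. LEP, the gene of leptin, had -0.93 (-1.27 to -0.62) and CIDEA had -0.29 (-0.48 to -0.11), and these held the most reads. ADIPOQ had 0.066 (-0.31 to 0.43) and PLIN1 had 0.34 (-0.061 to 0.73). Endothelial, immune and fibroblast markers summed to -0.016, 0.028 and -0.039. Single genes among them went farther on few reads, with 0.73 (0.22 to 1.25) at KDR, 1.21 (0.19 to 2.37) at CD3E and -1.06 (-1.76 to -0.46) at PTPRC. CKM, the creatine kinase of muscle, had the largest shift of the muscle markers, -0.47 (-0.53 to -0.40). The part of these cell types in the ratios of the 9 genes was not tested.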

How the data were processed

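ATAC-seq libraries of 3 Duroc and 3 Luchuan boars were sequenced. Per the labels, reads were filtered with Trimmomatic (version 0.36), aligned to Sscrofa11.1 with Bowtie2, and peaks were called with MACS2. Removal of duplicates, the shift of reads for the transposase and the pooling of replicates are not given in the sources used here. The authors deposited raw read counts, 1 per interval and breed, for 217213 intervals, without scaling. Each count column carries a breed name without a replicate and was taken as the sum over its boars, an assumption that could not be checked. Besides these counts, the authors deposited a rescaled log2 fold change, an average log2 signal and a p-value per interval, which were not used.

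Starts were read as counted from 0 and are given counted from 1. Common intervals that overlapped or adjoined were joined and represented by the longest, which left 140081 regions. Genes were the 19550 protein-coding genes of RefSeq for Sscrofa11.1, an assembly of a Duroc animal, on the autosomes, X and Y. Reads were summed over the regions of a gene, and 16986 genes had a region.

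Models for replicated counts need values per animal, so none was fitted and no p-value is given. Ratios of single regions and of genes are given with 95% Clopper-Pearson intervals, except for some sums, medians and alternatives. No molecular identifiers are described, so reads need not be independent molecules, and intervals cover counting error only. The script was tested on simulated counts. The text names all 9 genes, the region of each with the most reads, each region past a log2 ratio of 1 with at least 20 reads, the largest ratio among regions of at least 50 reads, and the extremes of each gene list. Further regions and genes named were chosen after their values were seen. The genes and lists were chosen with earlier results of these data known. A gene of 1 list is not reported here and was left out of its counts. Alternatives covered the scaling, the window, the merging, the pseudocount and a minimum of 20 reads. No sequence is printed and no motif was searched, as no genome sequence was used here. Values were computed with SciPy 1.17.1, pandas 2.3.3 and NumPy 2.4.6 in Python 3.11.15 and drawn with Matplotlib 3.10.9.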

Additional observations from a re-analysis of the deposited data

How the results depend on the processing

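No paired analysis was possible because the count columns carry no replicate number, and for the same reason no replicate could be left out. G0S2 stayed above 0.5 in all 16 alternatives, between 0.72 with the clean reads of the study and 1.04 without the region 3.23 kb out. The minimum of 20 reads could not change its ratio, as all 70 regions had that many. Taking the joined interval with the most reads also left it at 0.92, so these alternatives add no check. LIPE stayed above 0 in its 11 alternatives (0.063 to 0.49), and MGLL (-0.30 to -0.070) and PLIN4 (-0.31 to -0.061) stayed below 0 in theirs. PNPLA2, ABHD5, PLIN2, PLIN5 and CIDEC took both signs. Scaling by the clean reads lowered every ratio by 0.20. It left 1 region past a log2 ratio of 1 and 3 past -1, and gave medians of -0.14 over the 70 regions and -0.093 over the 9 genes. Scaling by the summed reads gave medians of 0.092 and 0.14, and a scaling that follows the signal gave 0.15 over the genes. Within 2 kb of the genes, 1 region passed a log2 ratio of 1 and 0 passed -1, and the median over genes was 0.14. In gene bodies alone, where CIDEC had no region, 0 regions passed in either direction, and the medians were -0.0081 over regions and 0.022 over genes, since the regions past a log2 ratio of 1 in either direction lie outside the bodies. Counting every interval gave 3 intervals past a log2 ratio of 1 and a median of 0.14 over genes. Leaving out G0S2 gave a median of 0.011 over regions. The alternatives that left out regions nearer to another gene, single regions of G0S2, all of G0S2 or shared regions were chosen after seeing the data. Depth limits the weak regions, and those of fewer than 100 reads had intervals wider than 1 on the log2 scale.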

Other observations

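Among the 13836 genes with at least 500 reads, 19 had a higher summed log2 ratio than G0S2. CES1, a carboxylesterase that hydrolyses lipid esters and was on none of the lists, was one of them and was picked after its value was seen. It lies on chromosome 6 from 29884249 to 29913330, and its 8 regions held 242 Duroc and 423 Luchuan reads, a log2 ratio of 1.36. CES1 belongs to a family of similar genes, so the assignment of reads to it is uncertain.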
